A study of Mus musculus with 13 samples.

Results

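The genes described here are 9 genes that code for proteins of the junctions between endothelial cells, the cells that line blood vessels: Cdh5, Pecam1, Esam, Cldn5, Ocln, Jam2, F11r, Tjp1 and Cgn. They were chosen by name, with no measured value in the rule but with earlier results of these data known. Each matched 1 of the 37785 genes in the deposited count tables. All 9 passed the filter on low counts that left 21170 genes for the tests. Their levels were followed through libraries of total RNA from cells that had been bound to microbeads against PDGFRα, the product of Pdgfra, so as to enrich oligodendrocyte precursor cells (OPCs, the glial progenitors that give rise to myelin-forming oligodendrocytes). The cells came from the brains of wild-type C57BL/6 mice at embryonic day 16 (E16, 3 libraries) and at postnatal days 12 (P12, 3), 80 (P80, 3) and 310 (P310, 4). Groups follow the titles, and the age field of the labels differs from these by up to 4 days. Per the labels, myelin was removed with beads from the adult (P80 and P310) preparations alone, so in the comparison of P80 or P310 with P12 that step and age cannot be told apart. The labels speak of 3 to 4 mice per age and do not say that each library is 1 mouse, so p-values measure the spread between these libraries, which may in part be technical.

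Endothelial cells are held together by adherens junctions, built on the endothelial cadherin encoded by Cdh5, and by tight junctions, whose membrane proteins (claudins, occludin and junctional adhesion molecules) are tied to the actin cytoskeleton by scaffold proteins such as ZO-1 and cingulin. In the brain the tight junctions of capillary endothelium seal the space between cells and are a basis of the blood-brain barrier. Cdh5, Pecam1, Esam and Cldn5 are largely endothelial in the brain, and Pecam1 and Esam are also known from platelets and, for Pecam1, leukocytes. Ocln, F11r, Tjp1 and Cgn also belong to epithelial tight junctions, such as those of the choroid plexus, and Tjp1 is made by many cell types, neural progenitors among them.

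The libraries held 8669521 to 25810455 gene counts, and a gene at 0 counts may still have up to 0.116 to 0.346 CPM (counts scaled by library total), depending on the depth. Such limits concern counting error alone, as reads copied by PCR are not separate molecules. The counts of P12 replicates 2 and 3 were nearly as close as counting noise allows (chi-square per degree of freedom 2.34, against 16.6 to 179 in the other 14 pairs of libraries of 1 age) and they were counted as 1 sample, called P12 replicate 2-3, which left n = 3, 2, 3 and 4. The bead target Pdgfra stood at 33.0 ± 6.96, 70.2 ± 33.2, 37.1 ± 18.4 and 30.7 ± 25.8 CPM (SD) at E16, P12, P80 and P310, and the summed CPM of 10 OPC markers at 556, 623, 289 and 261. The summed CPM of 16 endothelial markers that include none of the 9 genes was 77.3 ± 4.66 at E16, 5682 ± 1306 at P12, 7395 ± 719 at P80 and 7512 ± 1875 at P310, so after birth it was larger than the OPC sum in each sample. In bulk libraries, fewer cells of a type and less RNA per cell cannot be told apart. The mitochondrial share of counts was 1.52% to 3.54% at E16 (lowest in replicate 1) and 4.44% to 10.8% at P12. It was 12.8% to 23.5% at P80 and 18.3% to 34.4% at P310 (highest in replicate 1). E16 lay below P12 and P12 below P80, so there this share and age cannot be told apart. P310 replicate 2 stood apart with 67270 CPM of mature oligodendrocyte markers, against 329 to 8187 in the other postnatal samples, the highest of these being P12 replicate 1.

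All CPM values below, and those of Pdgfra and the marker sums above, are scaled by TMM, a factor per sample that sets most genes level. Changes are log2 changes ± SE of the later over the earlier age from edgeR's quasi-likelihood test. They were called at an adjusted p under 0.05 (Benjamini-Hochberg over all 21170 genes).

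The 250 bases before the annotated start are printed here for 3 genes that rose strongly at P12 and for Cgn, which was not called, as RefSeq gives them in GRCm38.p6. Capitals mark GGAA, the core letters of ETS factor motifs (the family of the endothelial factor Erg), or TTCC, the same letters on the other strand.
Cldn5, chr16:18776597-18776846, + strand: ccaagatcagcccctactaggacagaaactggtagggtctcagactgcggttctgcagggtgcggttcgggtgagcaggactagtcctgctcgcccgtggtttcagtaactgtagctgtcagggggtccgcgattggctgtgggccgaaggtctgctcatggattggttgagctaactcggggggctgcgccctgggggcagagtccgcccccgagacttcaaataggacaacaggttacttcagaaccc
Ocln, chr13:100552719-100552968, − strand: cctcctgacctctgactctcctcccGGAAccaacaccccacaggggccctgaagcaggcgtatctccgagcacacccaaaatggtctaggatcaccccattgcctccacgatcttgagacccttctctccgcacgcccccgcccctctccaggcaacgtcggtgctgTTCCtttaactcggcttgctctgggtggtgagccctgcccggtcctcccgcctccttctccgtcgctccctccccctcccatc
F11r, chr1:171437311-171437560, + strand: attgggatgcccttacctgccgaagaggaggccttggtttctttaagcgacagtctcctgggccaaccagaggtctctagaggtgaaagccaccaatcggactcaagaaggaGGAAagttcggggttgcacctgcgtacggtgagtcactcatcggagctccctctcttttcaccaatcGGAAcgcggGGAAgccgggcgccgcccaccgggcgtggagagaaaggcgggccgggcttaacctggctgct
Cgn, chr3:94786483-94786732, − strand: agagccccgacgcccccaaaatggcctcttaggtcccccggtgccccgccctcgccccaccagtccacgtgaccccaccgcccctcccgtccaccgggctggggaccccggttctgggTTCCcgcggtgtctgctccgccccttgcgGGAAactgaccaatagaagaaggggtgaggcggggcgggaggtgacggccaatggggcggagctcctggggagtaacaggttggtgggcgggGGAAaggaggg
Windows were matched for 5 of the 9 genes (Tjp1 is the fifth, and Ocln has 2 windows, the first of which is shown). RefSeq starts can differ from the starts of the counted genes. The Tjp1 window (chr7:65371245-65371494) lies inside the gene span given below, and those of F11r and Cgn and the second of Ocln reach partly into theirs. The Cldn5 window held no GGAA on either strand, while those of Ocln, F11r, Tjp1 and Cgn held 2, 3, 3 and 3. Of 32851 windows of the same length, 93.4% held GGAA, with a median of 3 matches. The Sp1 box GGGCGG, found in 32.7% of all windows, was present in each of the 5 genes' first windows, with 6 matches in Cgn and 1 or 2 in the others. GATAA (22.6% of windows) and TGTTT (46.4%) were found in Tjp1 alone among them, CANNTG (66.2%) in Cgn, F11r and the second Ocln window, and ACAAT (27.7%) in none. Both strands were searched, and matches of different motifs may overlap. The GC content was 59.6% in the Cldn5 window and 70.4% in that of Cgn, against a median of 52.4% over all windows.

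P12 was set against E16, the step over which the enriched fraction passes from embryo to early postnatal brain. Of the 9 genes, 8 rose, and Cgn did not pass the test. The share of all genes that rose in this comparison was 16.7%, and 8 of the 9 were also above every E16 sample in each P12 sample, against 30.9% of all genes. The median log2 change was 4.50 over the 9 genes and 0.09 over all genes. The rises differed in size from about 4.52-fold for Jam2 to 307.3-fold for Cldn5.

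**Figure D1:**
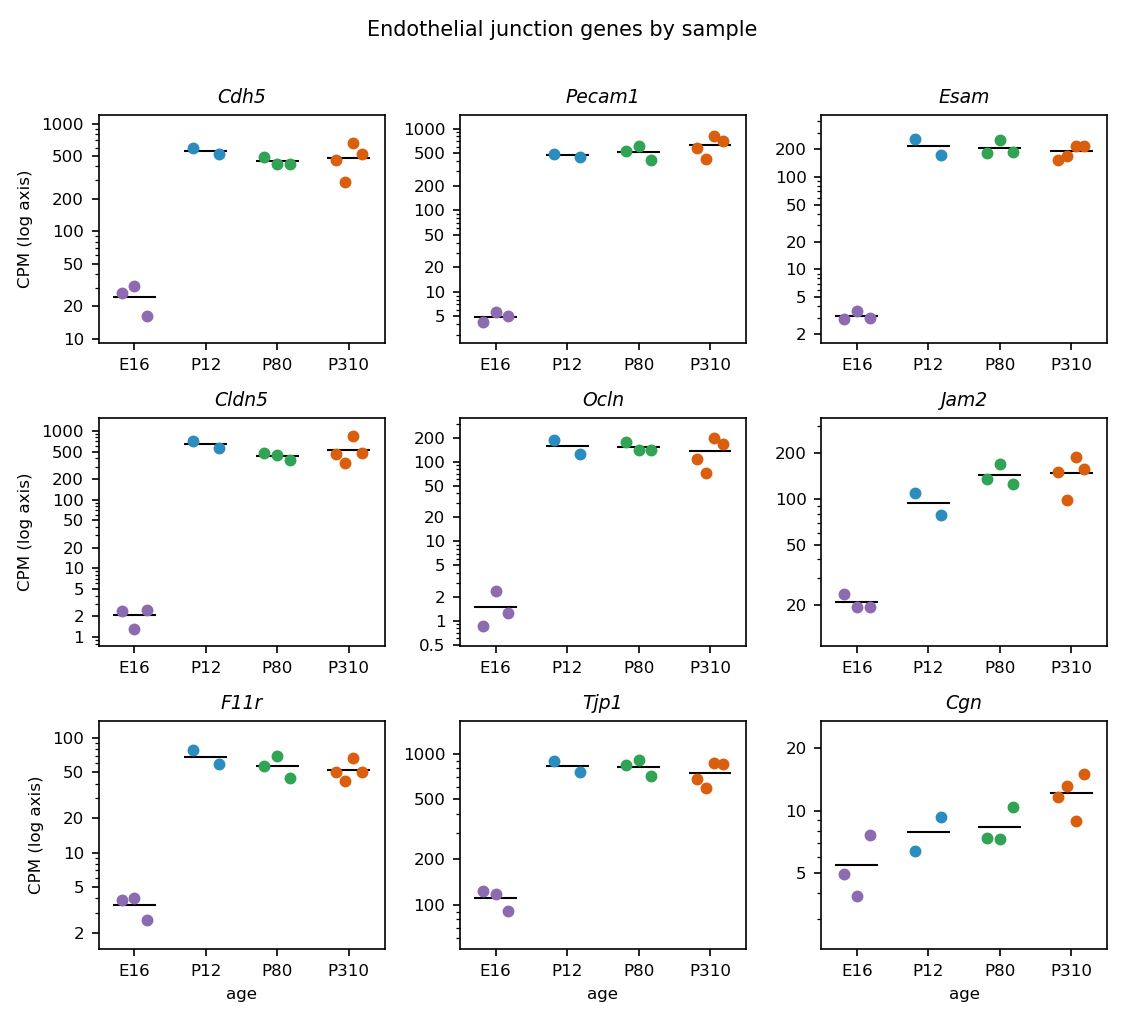
Each panel shows 1 gene, with TMM-scaled CPM on a log axis against age, a point per sample (n = 3, 2, 3 and 4 at E16, P12, P80 and P310) and a bar at the mean. In 8 panels the E16 points lie below all others, and in the Cgn panel the highest E16 value, 7.61 CPM, lies within the range of the later ages.

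The adhesion molecules of the endothelial surface came up from low levels. Cdh5, the cadherin of the adherens junction (ENSMUSG00000031871, GRCm38 chromosome 8, 104101625 to 104144511), had 593 and 522 CPM at P12, against 26.6, 31.1 and 16.5 CPM at E16. Its log2 change was 4.50 ± 0.34 (22.6-fold, adjusted p = 1.68e-07). Both P12 values lay far above the E16 values, which rested on 279 to 515 counts per library.
Pecam1, an immunoglobulin-like adhesion protein of the contacts between endothelial cells (ENSMUSG00000020717, chromosome 11, 106654217 to 106750628), had 489 and 447 CPM at P12 and 4.25, 5.67 and 5.01 CPM at E16. It rose by 6.55 ± 0.31 on the log2 scale (93.8-fold, adjusted p = 4.74e-09). The ratio of Cdh5 to Pecam1 CPM, into which their unequal lengths enter alike at each age, was 1.19 ± 0.03 at P12 (n = 2) and 5.01 ± 1.54 at E16 (n = 3).
Esam, an adhesion protein related to the junctional adhesion molecules (ENSMUSG00000001946, chromosome 9, 37528078 to 37538319), had 259.8 and 174 CPM at P12 and 2.88, 3.56 and 3.01 CPM at E16, a log2 change of 6.10 ± 0.29 (adjusted p = 4.74e-09). The summed platelet and megakaryocyte markers stood at 18.7 to 20.97 CPM at P12 and 57.1 to 61.3 CPM at E16. This cell type is known to carry Pecam1 and Esam, and 0 of its 8 markers were higher and 1 lower. The leukocyte sum stood at 13.9 to 18.2 CPM at P12 and 2.95 to 3.801 CPM at E16, with 2 of 6 tested markers higher and 0 lower. Of the 8 leukocyte markers, 5, Cd3e among them, were at 0 counts at E16. How much platelet or leukocyte RNA entered the changes of Pecam1 and Esam was not tested.

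Among the membrane proteins of the tight junction, the largest changes were those of Cldn5 and Ocln, which rested on 12 to 42 counts per library at E16. Cldn5, the main claudin of brain endothelium (ENSMUSG00000041378, chromosome 16, 18776847 to 18778260), had 708.5 and 560 CPM at P12, against 2.38, 1.33 and 2.48 CPM at E16, where the libraries held 33, 22 and 42 counts. This was the largest change of the 9, with a log2 change of 8.26 ± 0.42 (adjusted p = 6.73e-09).
Ocln, which codes for occludin (ENSMUSG00000021638, chromosome 13, 100496507 to 100552718), had 189.5 and 126 CPM at P12 and 0.864, 2.35 and 1.24 CPM at E16, from 12, 39 and 21 counts. Its log2 change was 6.71 ± 0.49 (105-fold, adjusted p = 1.76e-07).
The junctional adhesion molecules F11r (JAM-A) and Jam2 (JAM-B) moved less. F11r (ENSMUSG00000038235, chromosome 1, 171437535 to 171464603) had 77.7 and 58.9 CPM at P12 and 3.89, 4.04 and 2.59 CPM at E16, a log2 change of 4.28 ± 0.31 (19.4-fold, adjusted p = 1.31e-07). Jam2 (ENSMUSG00000053062, chromosome 16, 84774123 to 84825928) had 109.7 and 79.0 CPM at P12 and 23.8, 19.4 and 19.4 CPM at E16. It rose by 2.18 ± 0.27 (adjusted p = 2.51e-05), the smallest change among the 8 genes called.

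Of the scaffold proteins, Tjp1 rose and Cgn did not pass the test. Tjp1, which codes for ZO-1 (ENSMUSG00000030516, chromosome 7, 65296165 to 65527781), had 900 and 752 CPM at P12 and 122, 118 and 91.5 CPM at E16, a log2 change of 2.90 ± 0.24 (7.48-fold, adjusted p = 3.41e-07).
Cgn, which codes for cingulin (ENSMUSG00000068876, chromosome 3, 94760069 to 94786492), had 6.41 and 9.37 CPM at P12 and 4.97, 3.86 and 7.61 CPM at E16. The P12 and E16 values overlapped, and the log2 change was 0.53 ± 0.44 (adjusted p = 0.411), with a 95% interval of −0.41 to 1.47. The sum of choroid plexus epithelium markers, another source of tight junction transcripts, was 5514 and 883 CPM at P12 and 109 to 185 CPM at E16, and 7 of its 8 markers rose. P12 replicate 1, with the higher choroid plexus sum, had the lower Cgn value but the higher values of Ocln, F11r and Tjp1. Its endothelial sum was higher as well, at 6605 CPM against 4758 CPM in P12 replicate 2-3. The part of choroid plexus RNA in the changes of Ocln, F11r, Tjp1 and Cgn was not tested.

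All 16 endothelial markers rose as well (median log2 change 6.93), as did 6 of 8 pericyte and smooth muscle markers, 7 of 8 astrocyte and 7 of 8 microglia markers, while 7 of 8 immature neuron markers fell, with a sum of 147 to 209 CPM at P12 and 5224 to 6108 CPM at E16. With all 4 ages in 1 test, 8 of the 9 genes were called again, against 37.1% of all genes.

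**Figure D2:**
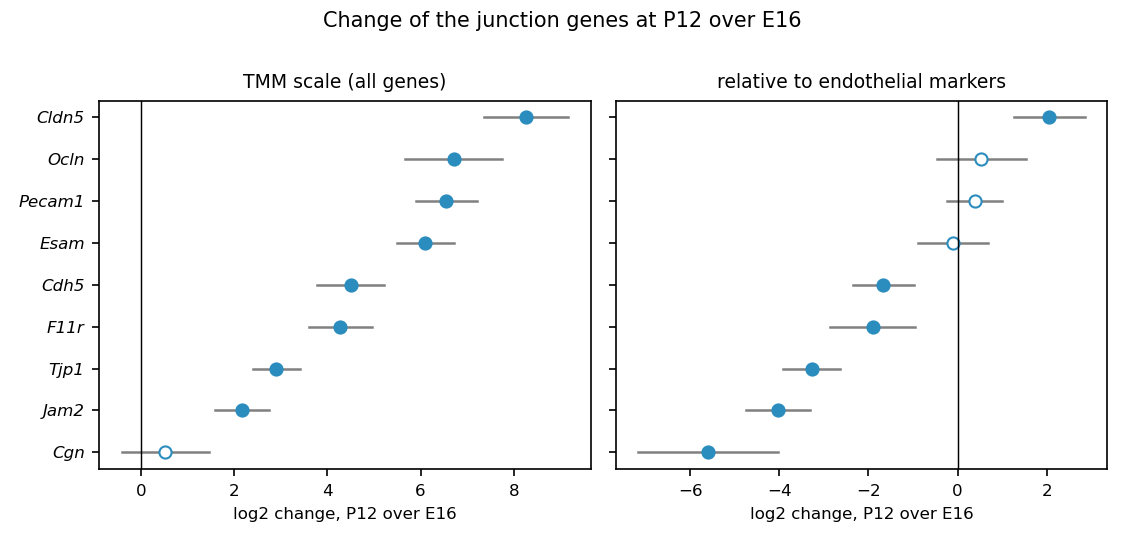
Points are log2 changes at P12 over E16 with 95% intervals, on the scale of all genes (left) and relative to the 16 endothelial markers (right), filled where called. On the left the intervals of 8 genes lie above 0, and that of Cgn includes 0. On the right the interval of Cldn5 lies above 0 and those of Cdh5, F11r, Tjp1, Jam2 and Cgn below it. Those of Pecam1, Ocln and Esam include it.

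A second scale set each gene against the summed counts of the 16 endothelial markers, as a ratio and not as a correction. On it the median of all genes shifted by −6.06 from E16 to P12, since the marker sum itself rose, and 89.6% of all genes were lower and 0.269% higher. Of the 9 genes, 1 (Cldn5) was higher, 5 were lower and 3 were not called. Cldn5 was 10.7% and 11.8% of the endothelial sum at P12 and 3.12%, 1.61% and 3.38% at E16, a log2 change of 2.06 ± 0.37 (adjusted p = 1.42e-04). Pecam1 (0.39 ± 0.29, adjusted p = 0.218), Ocln (0.53 ± 0.46, adjusted p = 0.280) and Esam (−0.10 ± 0.37, adjusted p = 0.793) were not called, with 95% intervals of −0.24 to 1.01, −0.46 to 1.53 and −0.90 to 0.70.
Cdh5 was 8.97% and 10.97% of the sum at P12 and 34.8%, 37.7% and 22.5% at E16, a log2 change of −1.67 ± 0.32 (adjusted p = 2.50e-04). The 2 P12 values lay below every E16 value. F11r fell by 1.90 ± 0.44 (adjusted p = 0.00121), Tjp1 by 3.28 ± 0.30 (adjusted p = 2.12e-07), Jam2 by 4.03 ± 0.34 (adjusted p = 1.01e-07) and Cgn by 5.61 ± 0.73 (adjusted p = 7.04e-06). At E16 Tjp1 alone was 125% to 161% of the endothelial sum, against 13.6% and 15.8% at P12. Leaving out P12 replicate 2-3 moved the change of Cgn to −6.21, with the call kept.

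This scale depends on the markers chosen. At E16, 66.8% to 76.3% of the marker sum came from Slc2a1, Kdr, Mfsd2a and Itm2a, genes that other cells may also express, against 38.2% at P12, 22.3% at P80 and 19.9% at P310. With Flt1, Tek, Tie1 and Erg alone as the yardstick, the change of Cldn5 was 0.79 and its call was lost (adjusted p = 0.108), while Pecam1 (−0.86, adjusted p = 0.0339) and Esam (−1.34, adjusted p = 0.0103) were called lower, as were 93.4% of all genes, and Ocln stood at −0.68 (adjusted p = 0.226). The fall of Cdh5, at −2.89, and those of F11r, Tjp1, Jam2 and Cgn were called on either yardstick.

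**Figure D3:**
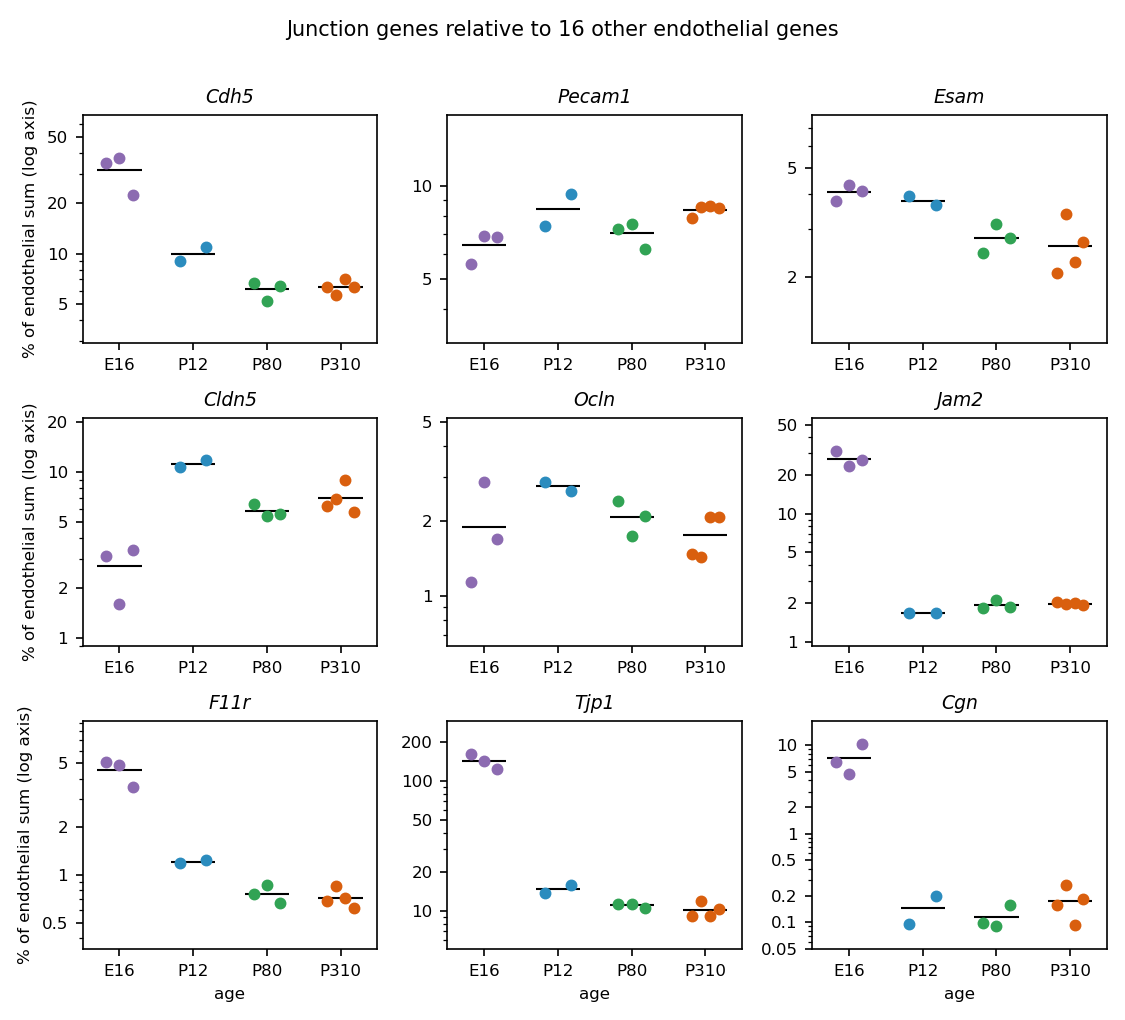
Each panel shows 1 gene as a percentage of the summed CPM of the 16 endothelial markers, on a log axis, with a point per sample (n = 3, 2, 3 and 4) and a bar at the mean. The Cldn5 points are lowest at E16, at 1.61% to 3.38%, while those of Cdh5, Jam2, F11r, Tjp1 and Cgn are highest there.

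Levels can be compared between genes only per length of exon, here as CPM per kilobase. At E16 the order was Tjp1 (14.2 ± 2.14), Cdh5 (5.88 ± 1.78), Jam2 (3.56 ± 0.43), Cldn5 (1.46 ± 0.45), F11r (1.32 ± 0.30), Esam (1.10 ± 0.13), Cgn (0.91 ± 0.32), Pecam1 (0.80 ± 0.11) and Ocln (0.35 ± 0.18), as mean ± SD over 3 samples. The first 3 genes, and Ocln at the end, were apart from their neighbours by more than the SDs, while from Cldn5 to Pecam1 neighbouring genes did not differ beyond their spread.
Over the 9 postnatal samples Cldn5 was first with 369 ± 115 CPM per kilobase, then Cdh5 (116 ± 26.0), Tjp1 (101 ± 14.2), Pecam1 (89.5 ± 21.3), Esam (70.1 ± 13.1), Ocln (34.7 ± 9.69), Jam2 (23.0 ± 6.06), F11r (21.6 ± 4.50) and Cgn (1.65 ± 0.48). From Cdh5 to Esam, and from Ocln to F11r, the ranges of 1 SD of neighbouring genes overlapped, though these SDs hold the spread that genes of the same samples share. Within samples, Ocln lay above Jam2 in all 9, and Pecam1 above Esam in all but P12 replicate 1. The other neighbours in these stretches changed order between samples. Cldn5, which came after Jam2 at E16, was the highest of the 9 at P12, P80 and P310, and Jam2 came after Ocln at those 3 ages.

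**Figure D4:**
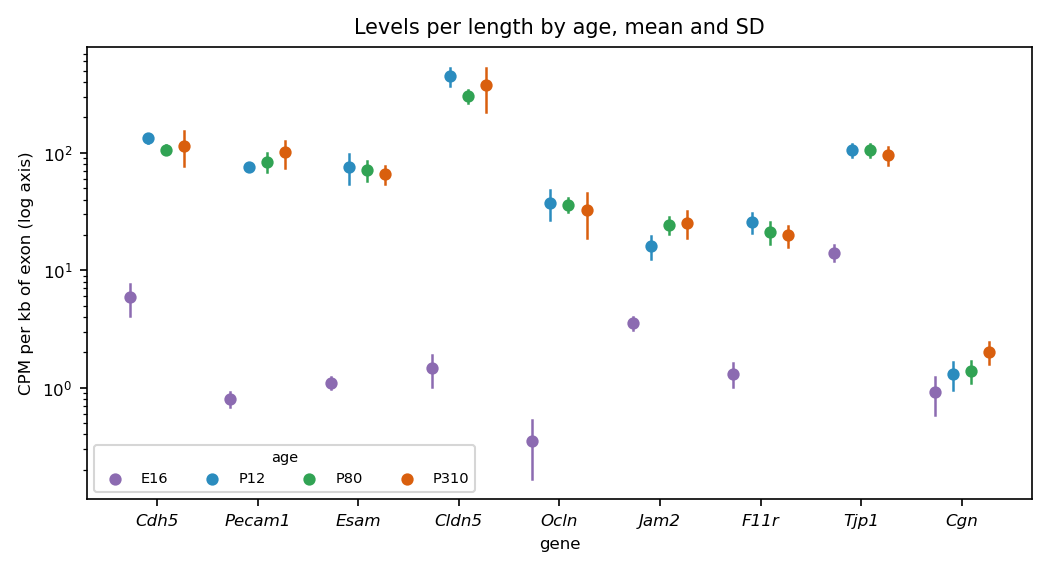
Points are mean CPM per kilobase of exon (log axis) for each gene at each age, with bars of 1 SD over samples (n = 3, 2, 3 and 4). Cldn5 is the highest gene after birth, at 304 to 448.5 CPM per kilobase, and Cgn the lowest, at 1.31 to 2.02.

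Between the postnatal ages the genes were compared over the ages at which the mice mature and grow older. None of the 9 was called at P80 over P12, where 1.42% of all genes were called, nor at P310 over P80, where none of the 21170 genes was called, nor at P310 over P12, where 2.51% were. With the 3 postnatal ages in 1 test, none was called, against 1.95% of all genes. At an unadjusted p under 0.05 from edgeR's test, Jam2 alone among them passed at P80 over P12 (adjusted p = 0.486) and at P310 over P12 (adjusted p = 0.286), and none did at P310 over P80. DESeq2 called 28 of all genes at P310 over P80 and none of the 9.

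**Figure D5:**
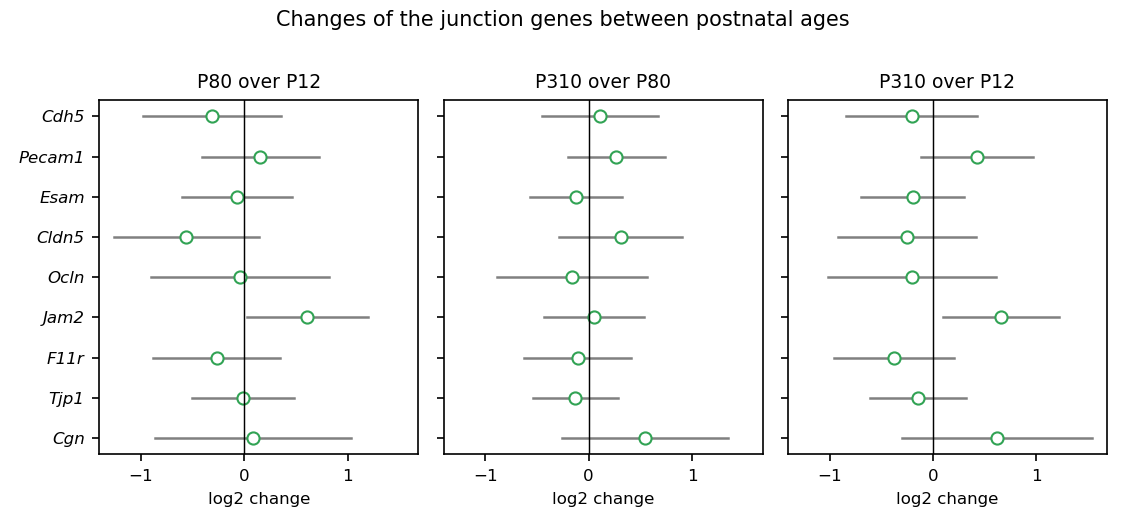
Open points are log2 changes with 95% intervals for the 9 genes at P80 over P12, P310 over P80 and P310 over P12. All intervals but those of Jam2 at P80 and P310 over P12 include 0.

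Jam2 had the largest change of the 9 at P80 over P12. It stood at 109.7 and 79.0 CPM at P12, 135, 170.2 and 126 CPM at P80 and 150.1, 98.4, 189 and 158 CPM at P310. The P80 values lay above both P12 values, as in 11.1% of all genes, and the log2 change was 0.61 ± 0.28. Cldn5 had 475, 442 and 372.5 CPM at P80 and 708.5 and 560 CPM at P12, without overlap, as had Cdh5 with 495, 424 and 425 CPM at P80 and 593 and 522 CPM at P12 (15.5% of all genes lay lower in this way). The changes, −0.56 ± 0.33 for Cldn5 (adjusted p = 0.666) and −0.32 ± 0.31 for Cdh5 (adjusted p = 0.876), did not pass the test. At P310 Cldn5 had 464, 346, 851 and 473 CPM and Cdh5 had 463, 284, 668 and 518 CPM, a spread that took in the P80 values.
Pecam1 had 538, 611 and 416 CPM at P80 and 578, 429.5, 811.5 and 695 CPM at P310, and Tjp1 835, 911 and 707.5 CPM at P80 and 675, 596, 867 and 853.5 CPM at P310. Ocln had 178, 140.6 and 139.9 CPM at P80 and 108.5, 71.8, 196 and 169 CPM at P310. Esam spanned 153 to 259.8 CPM and F11r 42.5 to 77.7 CPM over the 9 postnatal samples. Cgn had 11.6, 13.2, 8.92 and 15.0 CPM at P310 and 7.35, 7.29 and 10.4 CPM at P80, a log2 change of 0.54 ± 0.38 with a 95% interval of −0.26 to 1.35 (adjusted p = 0.899).

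Relative to the endothelial markers no member was called between postnatal ages, where 1.25% of all genes were called at P80 over P12, 0% at P310 over P80 and 2.99% at P310 over P12. These shares moved with single libraries: leaving out 1 sample gave 137 (P12 replicate 2-3) to 839 genes (P310 replicate 2) in place of 265 at P80 over P12, and 200 (P12 replicate 2-3) to 2466 (P310 replicate 2) in place of 634 at P310 over P12, with no member called. Cldn5 was 6.42%, 5.45% and 5.58% of the endothelial sum at P80 and 10.7% and 11.8% at P12 (−0.95 ± 0.35, adjusted p = 0.262). Under the yardstick of Flt1, Tek, Tie1 and Erg, Cdh5 (−1.11, adjusted p = 0.0185) and Tjp1 (−0.996, adjusted p = 0.0157) were called lower at P310 than at P12, where 15.2% of all genes were called lower and the median of all genes was −0.793. Most of this yardstick was Flt1, itself called higher at P310 over P12 on the scale of all genes. Flt1 stood at 1048 and 2488 CPM at P12 and P310, within short sums of 1811 and 3306 CPM. Tek (368 and 440 CPM), Tie1 (294 and 279 CPM) and Erg (100.3 and 98.5 CPM) moved less. The ratio of Cdh5 to Pecam1 was 1.19 ± 0.03 at P12, 0.88 ± 0.17 at P80 and 0.76 ± 0.07 at P310, and was not tested. Mean ratios of Ocln, Esam, Tjp1 and F11r to Pecam1 were likewise lower at each later age, for Tjp1 1.76 ± 0.11, 1.58 ± 0.11 and 1.21 ± 0.13. For Cldn5 the mean ratios were 1.35, 0.83 and 0.83, and for Jam2 0.20, 0.28 and 0.24.

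P310 replicate 3 was highest of the 9 postnatal samples for Cdh5, Pecam1, Cldn5, Ocln and Jam2, and it had the highest endothelial sum, 9475 CPM, while Cgn had there its lowest P310 value, 8.92 CPM. Esam and F11r were highest in P12 replicate 1 and Tjp1 in P80 replicate 2. P310 replicate 2, with the large oligodendrocyte sum, was lowest for Cdh5, Cldn5, Ocln, Tjp1 and F11r, and its endothelial sum was 5018 CPM, the lowest at P310. The highest over the lowest postnatal value was 1.53 for Tjp1, 2.74 for Ocln and 1.99 for the endothelial sum. Without P310 replicate 2, no member was called between postnatal ages, as with it; the part of the oligodendrocyte RNA in these values was not tested.
Over the 9 postnatal samples the most alike pair was Tjp1 and Esam, whose log2 profiles differed by a root mean square of 0.14 after each was centred, followed by Tjp1 and F11r (0.16) and Cdh5 and Cldn5 (0.18). Cgn was the least like the others, at 0.49 to 0.72. The measure grows with the spread and counting noise of each gene. Cgn rested on 59 to 177 counts in the postnatal samples other than P12 replicate 2-3, which held 442. All points share libraries and depth, and this is a description without a test. The ratio of Tjp1 to Esam was 3.96 ± 0.42 over these samples (n = 9) and 35.3 ± 6.37 at E16 (n = 3).

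Other genes had profiles close to single members over all 12 samples, among 10051 coding genes that averaged 10 CPM or more, by the same measure. The most alike were Adgra2 for Cdh5 (0.20), She for Pecam1 (0.20), Icam2 for Cldn5 (0.38), Tie1 for Ocln (0.30), Map3k11 for Tjp1 (0.14), A530084C06Rik for Esam (0.22), Aff1 for Jam2 (0.16), Map3k14 for Cgn (0.25) and Dlc1 for F11r (0.22). For Cldn5 and Ocln the next were Tek and Erg, which are endothelial markers as is Tie1, while the next for Tjp1 and Jam2 were Ptprg and Lifr.

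The other junction genes, taken from lists made with earlier results in view, were read against the 16.7% of all genes that rose and the 10.5% that fell at P12 over E16. Of the claudins, 11 of 14 were tested, 3 rose (Cldn2, Cldn1 and Cldn11) and none fell. Cldn11 also is a mature oligodendrocyte marker. Of 8 other tight junction membrane proteins, 3 rose (Lsr, Ildr2 and Marveld2), and of 18 scaffold and polarity proteins, 5 rose, among them Cgnl1 and Magi3, and Magi1 fell. Over 21 alternative settings 1 to 5, 3 to 4 and 3 to 6 genes of these lists rose, with 1 claudin without any 1 of E16 replicates 1, 2 and 3 or P12 replicate 1, and 3 scaffold genes without E16 replicate 3 or P12 replicate 1. The median log2 change of these lists was 1.56, 1.57 and −0.24, beside 0.09 for all genes. Genes named here without values fall outside the rule for named genes and were named after their values were seen.
Cgnl1, which codes for paracingulin, a relative of cingulin, rose by 4.94 ± 0.30, with 610 ± 97.5 CPM at P12 and 19.8 ± 6.61 at E16 (adjusted p = 2.58e-08), in contrast to the uncalled Cgn. Lsr, the angulin of contacts between 3 cells, rose by 4.50 ± 0.37, with 205 ± 31.2 CPM at P12 and 9.07 ± 1.33 CPM at E16 (adjusted p = 3.56e-07). Ildr2, of the same family, rose by 2.97 ± 0.48 (adjusted p = 4.77e-04).
Cldn2, a claudin of choroid plexus epithelium, rose by 5.74 ± 1.22 with a wide spread, 12.6 ± 12.2 CPM at P12 and 0.221 ± 0.383 at E16 (adjusted p = 0.00377), and it was 4.08 without P12 replicate 1, 5.15 without E16 replicate 3 and 6.48 without P12 replicate 2-3. Of the 3 E16 libraries only replicate 2 held counts of Cldn2 (0.664 CPM), so the size of the change depends on it and has no bound without it. The call of Cldn2 was kept without that library. Cldn1 was called at 2.70 ± 0.83 (adjusted p = 0.0262), a call lost without P12 replicate 1 (1.29, adjusted p = 0.461) and without each of E16 replicates 1, 2 and 3 (adjusted p = 0.0810, 0.0614 and 0.0845), with 3.40 without P12 replicate 2-3. Magi1, called lower at −1.03 ± 0.33 (adjusted p = 0.0306), lost its call without E16 replicate 1 (adjusted p = 0.0782), E16 replicate 2 (adjusted p = 0.0703) or P12 replicate 1 (−0.73, adjusted p = 0.254).

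Of 12 adherens junction genes, 6 rose and 2 fell at P12 over E16, with a median of 0.82, and 4 to 7 rose over the alternatives (4 without E16 replicate 3; the 2 falls became 1 in some). Ptprb, the endothelial phosphatase that binds the cadherin of Cdh5, rose by 8.50 ± 0.34, with 1969 ± 13.9 CPM at P12 and 5.43 ± 0.31 CPM at E16 (adjusted p = 4.48e-09), beside 8.26 for Cldn5. Vcl, vinculin, rose by 2.83 ± 0.27 (adjusted p = 1.75e-06). The cadherins Cdh2 and Cdh13 fell by 1.65 ± 0.31 (adjusted p = 9.68e-04) and 1.49 ± 0.42 (adjusted p = 0.0146), and the call of Cdh13 was lost without P12 replicate 1 (−1.02, adjusted p = 0.162) and reached −2.23 without P12 replicate 2-3. Cdh2, neural cadherin, is known from neurons and neural progenitors, and the immature neuron sum was lower at P12 in the same comparison. The part of neuronal RNA in these changes was not tested.
Of 12 endothelial adhesion genes, 8 rose and none fell, among them Podxl (3.90 ± 0.29, adjusted p = 1.52e-07) and Icam2 (7.82 ± 0.59, adjusted p = 1.93e-07). Emcn of this list is also 1 of the 16 endothelial markers. Of 9 gap junction genes, 5 rose, Gja4, Gja5 and Gja1 among them, and none fell. The connexins Gja4 and Gja5, known from arterial endothelium, rose by 6.05 ± 0.47 (adjusted p = 2.45e-07) and 5.10 ± 0.63 (adjusted p = 4.39e-05), and Gja1 and Gjb6 are also astrocyte markers. All 7 genes of caveolae and fenestrae rose, among them Ehd2 (5.69 ± 0.31, adjusted p = 1.11e-08) and Cavin2 (5.38 ± 0.31, adjusted p = 1.91e-08). The list medians were 4.04, 3.22 and 4.75, and the counts of rises over the alternatives 8 to 9, 4 to 7 and 7 to 7.

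At P80 over P12, where 1.42% of all genes were called, the called genes of these lists were Cdh2 (−1.80 ± 0.29, adjusted p = 0.00523), Nectin2 (−1.85 ± 0.38, adjusted p = 0.0253) and Mcam (−1.28 ± 0.28, adjusted p = 0.0317), all lower. The call of Cdh2 was lost without P12 replicate 1 (−1.48, adjusted p = 0.102). Nectin2 lost its call without P12 replicate 1, P12 replicate 2-3, P80 replicate 1 or P80 replicate 3 (adjusted p = 0.319, 0.0592, 0.106 and 0.138), and Mcam when any 1 P12 or P80 sample was left out (adjusted p = 0.0552 to 0.471). None of the genes tested in these lists was called at P310 over P80, and 1 adherens junction gene was higher and 2 lower, and 2 gap junction genes higher and 3 lower, without the low-count filter. At P80 over P12 that setting called 4 gap junction genes lower.
At P310 over P12, where 2.51% of all genes were called, Cdh13 was higher (2.07 ± 0.41, adjusted p = 0.0137), and Cdh2 (−2.14 ± 0.27, adjusted p = 4.79e-04), Nectin3 (−1.64 ± 0.31, adjusted p = 0.0105), Nectin2 (−1.72 ± 0.35, adjusted p = 0.0161) and Gja1 (−2.18 ± 0.37, adjusted p = 0.00591) were lower. These are all the calls of the lists in that comparison, named after their values were seen. Over the alternatives 0 to 1 adherens junction genes were higher and 1 to 4 lower, with 0 higher and 1 lower without P12 replicate 1, and 0 to 2 gap junction genes were lower, with 2 without P310 replicate 3. Without P310 replicate 2, 1 endothelial adhesion gene and 1 gene of caveolae and fenestrae were called higher at P310 over P12, and 1 gap junction gene lower and 1 gene of caveolae and fenestrae higher at P80 over P12.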

How the data were processed

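The tables deposited by the authors hold, per the file headers, raw counts of reads for each gene, assigned with featureCounts 1.5.0-p1 to the exons in Ensembl release 92 (GRCm38), with reads that map to several places or overlap several genes counted for each, at least 10 bases of overlap and no setting for strand. No other gene's exons overlap those of the 9 genes, in the deposited exon table or in GENCODE M21. Trim Galore and TopHat2 2.1.1 are named in the submitters' processing notes. Symbols came from GENCODE M21 (37715 of 37785 genes).

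P12 replicates 2 and 3 were summed. The 12 samples were fitted with a mean per age in edgeR 4.0.16 (filterByExpr, TMM, robust quasi-likelihood, R 4.3.3; 21170 genes; Benjamini-Hochberg, threshold 0.05), and again with the summed counts of 16 endothelial markers as library size. Its common biological coefficient of variation was 0.513. Alternatives, given in the closing section, included DESeq2 1.42.0 and voom in limma 3.58.1. Summaries used Python 3.11.15, numpy 2.4.6, pandas 2.3.3 and matplotlib 3.10.9.

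The 9 genes, the lists, the markers and the summing of the P12 libraries were chosen with earlier results of these data known. The rule names the 9 genes and Pdgfra, per other list and comparison of successive ages the 2 called genes with the smallest adjusted p in each direction that average 5 CPM or more in the higher age, and the 3 coding genes of at least 10 CPM most like each member; 1 gene it names is not reported here. Profiles were compared on log2 CPM with a prior count of 2.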

Additional observations from a re-analysis of the deposited data

Results flagged for a closer look

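Pecam1 as a percentage of the summed endothelial markers was 7.84% in P310 replicate 1, below the other 3 P310 samples, which lay between 8.50% and 8.57%. The gap was large relative to the range of these 4 samples (Dixon's ratio above 0.829). Of 18 groups of 4 samples looked at, this was the only one, and chance gives about 1 in 20.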

How the results depend on the processing

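On the scale of all genes, 8 members were called at P12 over E16 and none between postnatal ages under each of 21 alternatives, and leaving out 1 sample gave 8 to 8 and 0 to 0. Relative to the endothelial markers, 6 to 6 were called at P12 over E16 when 1 sample was left out, and 7 with Flt1, Tek, Tie1 and Erg as the yardstick, which also called 2 members at P310 over P12 where the 16 markers called 0. On that yardstick 1053 of all genes were called at P80 over P12 and 3241 at P310 over P12, against 265 and 634 with the 16 markers. With these, the count at P80 over P12 was 153, 137, 168 and 839 without P12 replicate 1, P12 replicate 2-3, P80 replicate 2 and P310 replicate 2, and that at P310 over P12 was 420, 418, 295, 200, 2466, 364 and 398 without E16 replicate 1, E16 replicate 2, P12 replicate 1, P12 replicate 2-3, P310 replicate 2, P310 replicate 3 and P310 replicate 4. The number of all genes called moved more. Leaving out 1 sample gave 3748 to 6553 genes at P12 over E16 (5765 with all samples), 71 to 446 at P80 over P12 (301), 0 to 1 at P310 over P80 (0) and 158 to 683 at P310 over P12 (531). P12 replicate 1 gave the lowest count of P80 over P12 and P310 over P12 when left out, and P12 replicate 2-3 that of P12 over E16. Leaving out P80 replicate 1 or 3 gave 191 and 151 at P80 over P12, and leaving out P310 replicate 4 gave the 1 gene at P310 over P80. At P80 over P12 the count was 877 without the low-count filter, 637 with DESeq2 and 521 with P12 replicates 2 and 3 apart. At P310 over P80 it was 423 without the filter and 28 with DESeq2, and at P310 over P12 it was 1285 without the filter, 1065 with DESeq2, 914 with limma-voom, 173 with only the 2 ages compared and 1012 with the P12 replicates apart. The cause was not tested.

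None of the called member changes changed sign. Of 72 member changes, 23 uncalled ones did under some alternative. With limma-voom these were, at P80 over P12, Ocln (0.101) and Cgn (−0.048), at P310 over P80, Ocln (0.001), Esam (0.072) and F11r (0.069), and at P310 over P12, Ocln (0.102). At P80 over P12, Tjp1 was 0.025 with RLE or DESeq2 and 0.038 with only the 2 ages or with the P12 replicates apart, Ocln was 0.010 with only the 2 ages and 0.062 with the P12 replicates apart, and Esam was 0.039 with these apart. With the short yardstick the relative changes were −0.864 for Pecam1 and −0.678 for Ocln at P12 over E16, −0.149 for Jam2 at P80 over P12, −0.036 for Cdh5 and −0.059 for Jam2 at P310 over P80, and −0.208 for Jam2 and −0.212 for Cgn at P310 over P12.
Leaving out 1 sample gave, for the uncalled changes whose sign moved, ranges at P80 over P12 of −0.316 to 0.275 (Ocln), −0.143 to 0.140 (Tjp1), −0.338 to 0.241 (Esam) and −0.172 to 0.379 (Cgn). At P310 over P80 they were −0.087 to 0.290 (Cdh5), −0.008 to 0.467 (Cldn5), −0.390 to 0.044 (Ocln), −0.218 to 0.047 (Esam), −0.085 to 0.199 (Jam2) and −0.278 to 0.064 (F11r). At P310 over P12 they were −0.402 to 0.023 (Cdh5), −0.478 to 0.113 (Ocln) and −0.461 to 0.118 (Esam). Relative to the endothelial markers they were −0.772 to 0.248 (Cgn) at P80 over P12, −0.044 to 0.127 (Cdh5), −0.007 to 0.094 (Jam2) and −0.183 to 0.001 (F11r) at P310 over P80, and −0.169 to 0.177 (Pecam1) and −0.178 to 0.843 (Cgn) at P310 over P12.

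Correlations between the deviations of same-numbered samples ran from −0.094 to 0.208, with 3 of 15 pairs over 0.1. These 3 were all pairs of samples numbered 2 (E16 with P12 0.183, P12 with P310 0.208, P80 with P310 0.105). Deviations were taken from age means of 2 to 4 samples, so they cannot tell whether the numbers pair the samples. With the replicate number as a block, 8, 0, 0 and 0 members and 5368, 243, 0 and 392 genes were called at P12 over E16, P80 over P12, P310 over P80 and P310 over P12, and 6, 0, 0 and 0 members relative to the endothelial markers. The uncalled changes of Tjp1 (0.010) and Cgn (−0.027) at P80 over P12 and of Jam2 (−0.013) at P310 over P80 changed sign, and Cldn1, Nectin2 and Mcam lost their calls (adjusted p = 0.0558, 0.0855 and 0.0560). P310 replicate 4 alone carries its number and drops out of that fit. Nectin2 also lost its call with only the 2 ages compared (adjusted p = 0.0898). At E16 depth limits Ocln and Cldn5, which rested on 12 to 42 counts per library.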
